A study of Rattus norvegicus with 20 samples.

Results

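The comparison was between 10% calorie restriction (CR) and control at 1 week in rat adipose tissue. It covers 4 of the 20 chips of the series and 2 of its 10 pools, chosen by their labels alone. The control group was offered all of the daily intake recorded in rats fed ad libitum, and the 10% group was offered 10% less of it, in both cases for 1 week. The rats were male Wistar rats, an outbred laboratory strain without a transgene, 6 weeks old at the start, housed singly on a purified powdered diet. Both groups were fasted for 16 h before white fat of the viscera was taken. One RNA pool of 5 rats was made per group, and after labelling it was read on 2 chips. These 2 chips repeat only the array step, so each group is 1 pool. One strain and sex stand behind every value, and 1 age behind those of both groups. The other 8 pools of the series, which were restricted by 5%, 20% or 30% at 1 week or belong to the groups at 1 month, were used for the spread between pools and for values set beside those of the 10% pool.

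White adipocytes store fatty acids as triglyceride in lipid droplets and release them when insulin is low or catecholamines are high. Lipases and droplet proteins such as perilipins control the release, and nuclear receptors of the PPAR family drive genes for both storage and oxidation. Adipose tissue also has a circadian clock. The activators CLOCK and BMAL1 bind E-box sequences and drive the period and cryptochrome genes, the nuclear receptors Nr1d1 and Nr1d2, and the transcription factors Dbp, Tef and Hlf, which in turn bind D-box sequences. Feeding time is known to set this clock in peripheral tissues, and fat of the viscera can hold lymphocytes, mesothelium and adjoining pancreas beside adipocytes.

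The clock genes were the list of largest median difference above 0 in the comparison, so their promoters are shown first. RefSeq promoters (GRCr8, the strand of the gene, from 250 bases before to 50 after the annotated start) were searched on both strands for the E-box CACGTG and the D-box TTANGTAA, which do not overlap each other in the sequences shown. The E-box was present in 6.42% of all 33469 promoters and the D-box in 2.24%. Of the 11 clock genes tested, 10 had a promoter in the table, 4 of them with the E-box (Bhlhe40, Bhlhe41, Nr1d1 and Tef) and 1 with the D-box (Per2). The percentages count promoters, whereas a clock gene counts once if any of its promoters matched, so the units differ. A match describes the letters of the window and is no evidence of binding, and a window without a match says only that these letters are not in it. Capitals mark the motif in the sequences of 4 genes with a single annotated start, which lie at chr7:115206577-115206876 on the plus strand (Tef), chr4:143174200-143174499 on the plus strand (Bhlhe40), chr4:180569306-180569605 on the minus strand (Bhlhe41) and chr9:99496944-99497243 on the minus strand (Per2). The first base of the motif stands 198, 220, 48 and 192 bases before the start in this order.
Tef: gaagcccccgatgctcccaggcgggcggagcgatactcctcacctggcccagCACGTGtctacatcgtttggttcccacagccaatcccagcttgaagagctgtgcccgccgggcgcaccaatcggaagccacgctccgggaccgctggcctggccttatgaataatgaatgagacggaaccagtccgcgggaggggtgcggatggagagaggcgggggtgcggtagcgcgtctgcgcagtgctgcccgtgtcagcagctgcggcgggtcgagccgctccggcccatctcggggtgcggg
Bhlhe40: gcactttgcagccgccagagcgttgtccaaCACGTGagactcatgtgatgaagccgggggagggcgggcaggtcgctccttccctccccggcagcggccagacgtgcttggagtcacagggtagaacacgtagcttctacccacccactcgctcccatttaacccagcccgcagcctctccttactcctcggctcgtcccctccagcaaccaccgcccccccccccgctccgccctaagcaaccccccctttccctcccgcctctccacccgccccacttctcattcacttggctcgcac
Bhlhe41: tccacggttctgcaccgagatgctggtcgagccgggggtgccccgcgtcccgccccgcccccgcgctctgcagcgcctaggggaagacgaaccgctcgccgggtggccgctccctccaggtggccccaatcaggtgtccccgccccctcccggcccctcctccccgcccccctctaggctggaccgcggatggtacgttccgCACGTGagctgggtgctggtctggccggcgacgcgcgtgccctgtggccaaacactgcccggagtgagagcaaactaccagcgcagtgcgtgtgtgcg
Per2: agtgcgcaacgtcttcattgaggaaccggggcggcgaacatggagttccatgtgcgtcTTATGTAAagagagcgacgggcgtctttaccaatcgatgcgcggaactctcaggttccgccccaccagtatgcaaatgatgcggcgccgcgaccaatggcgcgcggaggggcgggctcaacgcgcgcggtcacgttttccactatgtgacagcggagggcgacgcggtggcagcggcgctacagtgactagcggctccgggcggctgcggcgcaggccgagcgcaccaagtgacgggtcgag

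Levels are MAS5 signals, the linear intensity values that the Affymetrix software gives to each probe set. First chips at 1 week were scaled to a trimmed mean of 77.74 and second chips to 111.7, so the first chip of one pool is set against the first of the other, the second against the second, and a pool difference is the mean of both log2 differences. Chips of 1 pool correlated at 0.974 (control) and 0.973 (10%) across probe sets, while pool means correlated at 0.946. Defining markers of adipose tissue were strong in both pools. Fabp4, the adipocyte fatty acid-binding protein, read 4028.6 and 5168.2 in control and 4297.5 and 5474.7 at 10%, and Cfd (adipsin) read 4156.5 and 5204.7 in control and 4538.4 and 5676.9 at 10%.

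Transcripts of other tissues set both pools apart before any adipose gene is considered. The control pool carried digestive enzymes of the exocrine pancreas. Cpb1, a carboxypeptidase, read 6312.3 and 6671.9 on the control chips and 22.9 and 13.3 on the 10% chips, trypsin Prss1 read 6017.9 and 6378.8 against 18.6 and 10.2, and pancreatic lipase Pnlip read 5665.1 and 6540.4 against 13.8 and 22.0. Prss3b, Cela2a and Ctrb1 read at least 4580.3 on each control chip and at most 14.1 on each 10% chip. Of 35 pancreas genes on the array 32 were lower in the 10% pool and 2 higher by the fold rule given below, with a median log2 difference of -8.14. Over the 4 pancreas genes that passed the filter on low signals, log2 signals averaged 12.4 in control, 4.32 at 10% and 7.36 in the 30% pool at 1 week, which also carried pancreas (Prss1 read 286.8 and 363.5 there). The other 7 pools averaged 3.86 to 4.73. These genes were set aside from every count below. Lymphocyte markers also differed, since log2 signals of 11 genes averaged 7.80 in control, 5.94 at 10% and 3.71 to 7.79 in the other 8 pools. In such bulk samples fewer cells of a type and less RNA per cell cannot be told apart. Some lists are also given with the control pool at 1 month in place, or with a lymphocyte score of the pools as a covariate. The part of either set of markers in the results was not tested.

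A single gene outside the pancreas list passed the test between the pools. Ggh, gamma-glutamyl hydrolase, which trims glutamate chains from folates, read 692.3 and 1007.3 on the control chips and 137.4 and 238.7 on the 10% chips. Its log2 signal fell by 2.21 ± 0.196 (SE, 1 pool per group, adjusted p = 0.00495 by limma). The spread came from the 8 other pools around a line in restriction, and the 2 lone pools are assumed to vary like them. At 5%, 20% and 30% restriction the first chips read 135.8 to 141.2 and the second chips 193.6 to 235.6, so of the pools at 1 week the control pool alone stood high. With the control pool at 1 month in its place the difference was -0.20. The control pool at 1 week is the one with the most pancreas transcripts. In the 30% pool at 1 week, which carried them at a lower level, Ggh read 135.8 and 204.3. The part of pancreas in the Ggh difference was not tested.

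Over all 9516 probe sets counted, that 1 call is 0.0105%, and 1141 probe sets (11.99%) had an unadjusted p under 0.05, of which 742 were higher and 399 lower at 10%. A fit to single chips with the replicate block called 38 probe sets, 28 higher and 10 lower. In this fit the technical chips of a pool each count as an observation. Among its calls were Metrnl, Fbln1, Ephx1, Pde3b, Nampt, Glul, Nr1h3, Nfe2l2 and Pcca higher and Ggh, Ins1, Creld2, Hsph1 and Prdx4 lower. Of these genes only Ggh passed the test on pool means. The lower calls also include a probe set without a symbol that had the pancreas pattern over pools. On simulated data with independent noise in each probe set, the test recovered 34% of log2 changes of 1 and 79.4% of those of 2. Genes are therefore also described by a fold rule without a p-value: the same sign in both paired chip differences and a mean difference of at least 1.5-fold. By this rule 692 probe sets (7.27%) were higher and 682 (7.17%) lower in the 10% pool, for 486 genes (6.84%) higher and 501 (7.05%) lower of 7109 genes with 1 probe set each. Of these 1374 probe sets, 1134 (528 higher, 606 lower) also had one sign in all 4 chip-to-chip differences, so that chips of the groups did not overlap. Chips that do not overlap are thus usual among genes that met the rule and say little more of a gene below. They are also technical repeats of 1 pool. At least 2-fold differences were found in 118 probe sets higher and 212 lower. The median difference of all probe sets was 0.04, both chip pairs gave one sign in 70.43% of them, and the SE of a difference by limma had a median of 0.249. A share of a list near 6.84% higher or 7.05% lower is that of all genes and says nothing particular of the list. In what follows "higher" and "lower" mean the fold rule, counts are out of the genes of a list that passed the filter, and differences are log2 signal, 10% pool minus control pool.

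**Figure D1:**
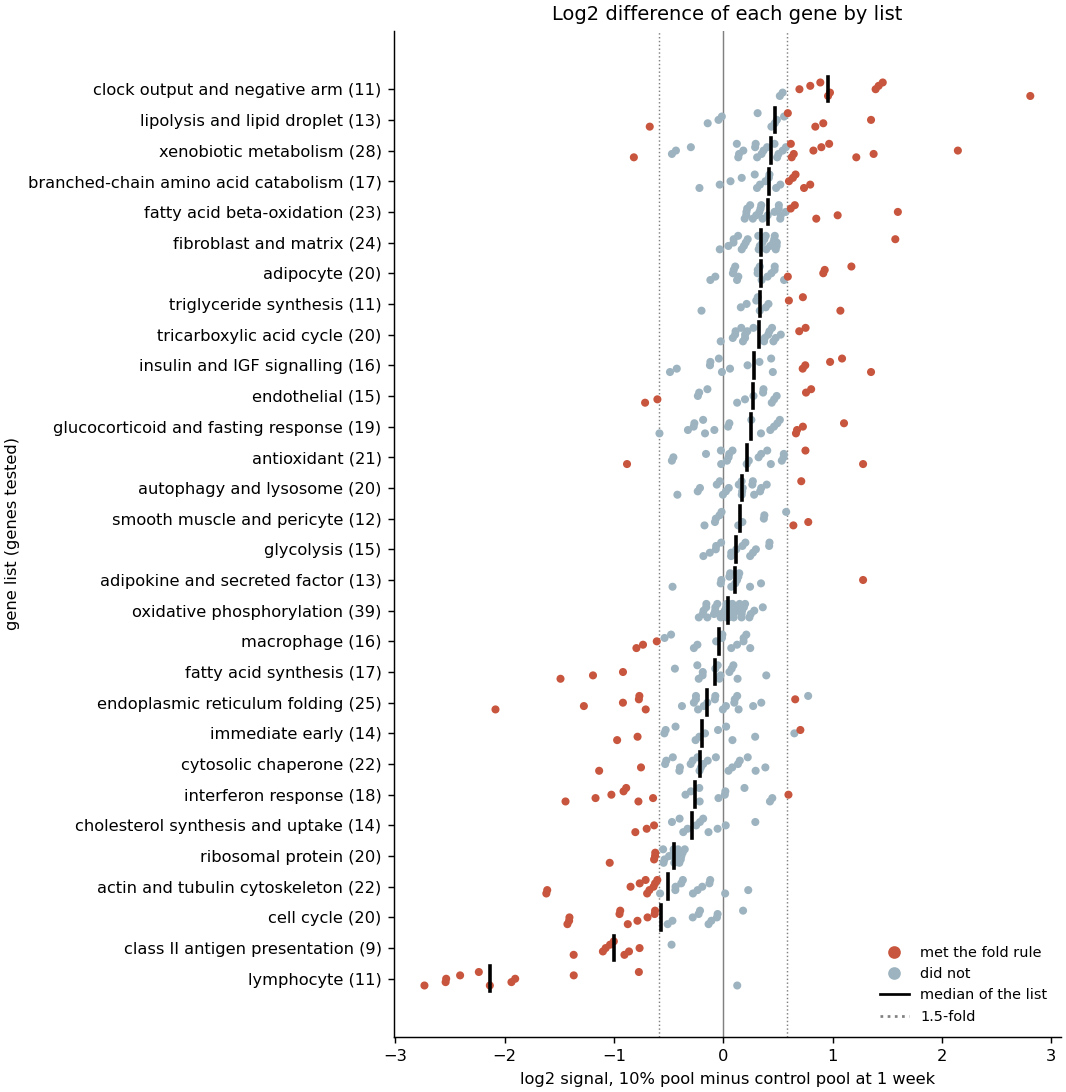
Log2 difference (10% pool minus control pool at 1 week) of each tested gene, 1 dot per gene, in lists with at least 9 genes tested, with the list median as a bar and 1.5-fold as dotted lines. Clock output genes have the highest median (0.96) with 11 of 11 genes above 0, and lymphocyte markers the lowest (-2.14), while oxidative phosphorylation lies at 0.05 with no gene past 1.5-fold.

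Of 11 tested genes of clock output and of the negative arm of the clock, 9 were higher and none lower, against 6.84% of all genes higher. Their median difference was 0.96, beside 0.04 for all probe sets. Dbp, a transcription factor whose level follows the clock closely, read 31.5 and 41.1 on the control chips and 198.4 and 320.3 on the 10% chips. Both 10% chips stood far above both control chips, and the difference of 2.81 ± 1.16 (SE) was the largest higher value of any named gene, with an adjusted p of 0.403. Nr1d2, a nuclear receptor that represses clock activators, read 68.4 and 97.9 in control against 142.1 and 356.1 at 10%. Its relative Nr1d1 read 56.6 and 54.9 in control against 125.3 and 171.2 at 10%. Both receptors had separate chips in the groups, with differences of 1.46 and 1.39.

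Tef, whose promoter with an E-box is printed above, read 7.8 and 19.5 on the control chips and 31.0 and 35.2 on the 10% chips, so its control level was near the low end of the array. Bhlhe40 and Bhlhe41, E-box binding repressors that also carry an E-box themselves, differed by 0.89 and 0.96. Per2, a period gene with the D-box shown, read 31.2 and 43.2 in control against 55.5 and 73.2 at 10%. The groups did not overlap for these 4 genes. Usp2, a deubiquitinase, differed by 0.98 and Hlf by 0.70, while Cry2 (0.54) and Per1 (0.52) did not reach 1.5-fold. In the positive arm the 1 gene tested, Clock, differed by -0.32, which missed the fold rule. A second probe set of Clock met it at -1.30. With the control pool at 1 month in place of that at 1 week, all 11 genes were higher (median 1.09).

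All 23 tested genes of fatty acid beta-oxidation had a difference above 0 (median 0.41), and 5 of them were higher and none lower. Ehhadh, the bifunctional enzyme of peroxisomal beta-oxidation, read 22.4 and 34.3 on the control chips and 73.8 and 95.3 on the 10% chips, a 3.03-fold difference. Cpt1b, which takes fatty acids into mitochondria, read 63.6 and 90.5 in control against 119.4 and 205.6 at 10%, with a difference of 1.05 ± 0.318 (SE, adjusted p = 0.352, limma). Chips of the groups did not overlap for either gene. Ech1, Acaa2 and Cpt2, chosen after their values were seen like other genes named beside the fixed rule, had differences of 0.85, 0.65 and 0.62. The liver form Cpt1a (0.22) and Acadm (0.21), a dehydrogenase of medium-chain fatty acids, stayed under 1.5-fold.

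Of 17 genes that break down branched-chain amino acids 5 were higher and none lower, and the median was 0.42. Hibch, an enzyme of valine breakdown, read 159.7 and 238.6 on the control chips and 261.9 and 438.3 on the 10% chips, and Pcca, a subunit of propionyl-CoA carboxylase, read 146.2 and 219.3 in control against 225.4 and 396.1 at 10%. Bckdha and Dbt, subunits of the branched-chain ketoacid dehydrogenase, differed by 0.66 and 0.64, and Mccc1 by 0.60. Bckdk, the kinase that inhibits this dehydrogenase, differed by -0.22.

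In the tricarboxylic acid cycle list 19 of 20 genes lay above 0 (median 0.32), with the NADP-dependent cytosolic enzyme Idh1 (0.75) and cytosolic aconitase Aco1 (0.69) higher. Both are cytosolic forms and not the enzymes of the mitochondrial cycle itself. In the respiratory chain none of 39 genes of oxidative phosphorylation met the fold rule in either direction, with a median of 0.05. Its largest differences were 0.36 for Ndufs1 and 0.28 for Atp5f1b. Glycolysis had none of 15 genes past the rule and a median of 0.12, with Hk1 and Ldhb both at 0.42. By limma no gene of any of these lists passed an adjusted p of 0.05, and an unadjusted p under 0.05 was found for 8 genes of beta-oxidation, 7 of branched-chain amino acids, 6 of the tricarboxylic acid cycle, 1 of oxidative phosphorylation and 2 of glycolysis, each time above 0.

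Pparg, the nuclear receptor that directs adipocyte differentiation and fat storage, read 278.0 and 416.5 on the control chips and 630.0 and 933.2 on the 10% chips. The 10% chips were 2.25-fold above their control chips on average, and the lower 10% chip exceeded the higher control chip. Dgat1, which makes the last bond of triglyceride, read 342.9 and 469.1 in control against 738.8 and 961.5 at 10%. Lpin1, the preceding phosphatase, differed by 0.73 and Pck1, which supplies glycerol for re-esterification, by 0.60. These made 3 of 11 genes of triglyceride synthesis higher and none lower (median 0.33).

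Among 13 genes of lipolysis and lipid droplets, 4 were higher and 1 lower (median 0.47). Pde3b, the phosphodiesterase through which insulin suppresses lipolysis, read 95.8 and 159.0 on the control chips and 240.5 and 412.6 on the 10% chips, with a difference of 1.35 ± 0.369 (SE). Plin4, a droplet coat protein, read 538.2 and 754.3 in control against 967.1 and 1492.1 at 10%. Prkar2b, a regulatory subunit of protein kinase A, differed by 0.84 and the droplet protein Cidea by 0.59. G0s2, an inhibitor of the main triglyceride lipase, was the one lower gene (755.1 and 1415.0 in control against 490.2 and 857.9 at 10%). The lipases Pnpla2 (0.56), Lipe (0.47) and Mgll (0.49) were above 0 and under 1.5-fold.

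Of 20 adipocyte markers 4 were higher (Pparg, Acvr1c, Plin4 and Cidea) and none lower, with a median of 0.34, which was 0.21 with the lymphocyte score of the pools as a covariate. Signals of the most abundant adipocyte genes differed little, with Lpl at 0.10, Fabp4 at 0.09, Cfd at 0.13 and Lep (leptin) at 0.11. Log2 signals of the marker list averaged 9.51 in control and 9.90 at 10%. Of 13 adipokines and other secreted factors Nampt, a rate-limiting enzyme of NAD synthesis that is also secreted, was higher and none lower. It read 101.7 and 126.4 on the control chips and 224.2 and 337.7 on the 10% chips. Penk, a precursor of opioid peptides, had a difference of -0.46 that missed the rule.

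The main enzymes of fatty acid synthesis differed little. Fasn (fatty acid synthase) read 3726.7 and 5125.9 on the control chips and 4109.4 and 5171.3 on the 10% chips, and Acaca (0.13), Acly (-0.22) and Me1 (-0.05) were also close to 0. Of 17 genes none was higher and 3 were lower. Scd2, a desaturase, read 237.0 and 295.5 in control against 72.4 and 122.8 at 10%, Pnpla3 read 400.6 and 616.0 in control against 161.7 and 292.5 at 10%, and Mlxipl, a carbohydrate-responsive transcription factor, read 70.7 and 116.7 in control against 39.2 and 59.0 at 10%. The chips of the groups did not overlap for these 3 genes. The list median was -0.07 and turned to 0.26 with the control pool at 1 month in place. Scd2 differed by -3.15 at 30% restriction for 1 week and by -3.12 at 10% for 1 month, the pools with the lowest means of lymphocyte markers (3.71 and 3.79). The order was the other way for 20% and 10% at 1 week. There Scd2 differed by -2.18 and -1.49, with lymphocyte means of 6.21 and 5.94. A link between the 2 was not tested.

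In cholesterol synthesis and uptake 12 of 14 genes lay below 0 (median -0.29), with Dhcr7 (-0.80), Nsdhl (-0.70) and Idi1 (-0.63) lower and none higher. All are enzymes of the sterol pathway. Cyp51 read 184.4 and 291.1 on the control chips and 141.7 and 268.7 on the 10% chips, a difference of -0.25 ± 0.209 (SE) that did not meet the rule. The median was -0.10 with the control pool at 1 month in place, where 2 genes were lower, and -0.19 with the lymphocyte score.

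Of 16 genes of insulin and IGF signalling 5 were higher and none lower, with a median of 0.28 (0.18 with the lymphocyte score). Insr, the insulin receptor, read 16.3 and 21.3 on the control chips and 38.1 and 41.1 on the 10% chips, a low signal with separate groups. Grb14, an adaptor that inhibits this receptor, differed by 0.98, Akt2 by 0.73 and Trib3, an inhibitor of Akt, by 0.75. Pde3b is the fifth. The glucose transporter Slc2a4 (-0.12) and Igf1 (-0.12) did not differ by the rule.

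Of 19 genes known to respond to glucocorticoids or fasting 4 were higher and none lower, with a median of 0.26 (0.08 with the lymphocyte score as a covariate). Glul, glutamine synthetase, read 790.6 and 934.9 on the control chips and 1654.0 and 2066.4 on the 10% chips, 2.15-fold higher. Lpin1, Tsc22d3 (0.68) and Klf15 (0.67) were the others. Pdk4, a fasting-induced kinase that inhibits pyruvate oxidation, read 115.1 and 116.2 in control against 125.3 and 152.4 at 10% and missed the rule, and Fkbp5 (0.04) and Angptl4 (0.06) were near 0. Star, which carries cholesterol into mitochondria for steroid synthesis, read 99.6 and 155.0 in control against 249.9 and 406.7 at 10%, and Coq8a, needed for coenzyme Q synthesis, read 100.3 and 192.9 in control against 317.2 and 445.6 at 10%. For both genes the 10% chips lay above the control chips.

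Of 28 genes that metabolise foreign compounds 9 were higher and 1 lower, against 6.84% and 7.05% of all genes, with a median of 0.44. Ephx1, an epoxide hydrolase, read 82.4 and 162.5 on the control chips and 233.2 and 386.5 on the 10% chips, with a difference of 1.38 ± 0.346 (SE, adjusted p = 0.319, limma). Akr1c14, an aldo-keto reductase of steroids, read 48.6 and 72.8 in control against 111.4 and 171.6 at 10%. Nqo1, a quinone reductase, differed by 0.97, and Por, the reductase that serves the cytochromes P450, by 0.90. Cyp2e1 had the largest difference of the list (2.15) at very low signals (2.5 and 18.9 in control against 22.2 and 41.7 at 10%), with its lowest reading on a control chip. Cyp1b1 was the lower gene (-0.82). Sult1a1 (0.54) and Fmo1 (0.49) were above 0 and missed the rule. Among 21 antioxidant genes Nampt and Nfe2l2 (0.75), a transcription factor of the oxidative stress response, were higher. Prdx4, a peroxiredoxin of the endoplasmic reticulum, was lower. It read 492.9 and 586.6 in control against 242.1 and 352.4 at 10%, but its difference was 0.20 with the control pool at 1 month in place.

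Of 22 genes of actin and tubulin 10 were lower and none higher, with a median of -0.51. Cotl1, an actin-binding protein abundant in leukocytes, read 233.0 and 278.0 on the control chips and 74.5 and 92.2 on the 10% chips, and the tubulin Tuba4a read 65.3 and 92.3 in control against 21.2 and 30.5 at 10%. Tubb6, Tubb2a, Tubb2b, Pfn1, Arpc1b, Arpc2, Tpm3 and Stmn1 made up the rest, between -0.85 and -0.60. Actg1 read 2761.6 and 2427.3 in control against 1958.5 and 2871.8 at 10% and its chip pairs pointed in opposite directions. Tubb4b (-0.38) and Tpm4 (-0.23) missed the rule. The lymphocyte markers were lower in the same pool, and with their score as a covariate the median was -0.36.

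Of 22 cytosolic chaperones 2 were lower and none higher (median -0.21). Hsph1, a nucleotide exchange factor of Hsp70, read 153.3 and 257.6 on the control chips and 69.0 and 118.6 on the 10% chips, with a difference of -1.14 ± 0.313 (SE), and Dnajb1 differed by -0.75, with its second probe set at -0.48. Every one of the 20 ribosomal protein genes had a difference below 0, from -1.04 to -0.35 with a median of -0.45. Only Rpl39, Rpl4, Rps15 and Rpl18 reached 1.5-fold. Rpl4 read 1783.1 and 2174.5 in control against 1058.2 and 1524.0 at 10%. Rpl39 read 80.4 and 76.5 in control against 34.7 and 42.0 at 10% and had a difference of 0.27 with the control pool at 1 month in place, where the median of the list was -0.40. By limma 12 of these 20 genes had an unadjusted p under 0.05 and none an adjusted p under 0.05.

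Folding in the endoplasmic reticulum showed 6 of 25 genes lower and 1 higher. Ero1b, an oxidase highly expressed in the pancreas, read 108.8 and 92.2 on the control chips and 20.3 and 27.5 on the 10% chips. It differed by -2.08 from the control pool at 1 week and by -0.26 from that at 1 month. Creld2 (158.3 and 185.9 in control against 58.5 and 85.9 at 10%), Sel1l, Ssr4, Sdf2l1 and Dnajc3 were the other lower genes. Their differences were -1.27, -0.92, -0.77, -0.77 and -0.71. With the control pool at 1 month in place 2 genes of the list were lower. The chaperones Hsp90b1 (-0.18) and Calr (-0.23) did not meet the rule. Ddit3, a stress-induced transcription factor, was the higher gene (0.66).

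Lymphocyte markers had the lowest median of the lists with more than 1 gene counted. Of 11 genes 10 were lower, with a median of -2.14. Cd3g, a subunit of the T cell receptor complex, read 486.2 and 532.3 on the control chips and 71.1 and 82.3 on the 10% chips, and Lck, the kinase of that receptor, read 449.3 and 471.6 in control against 81.6 and 117.0 at 10%. Cd79b, of the B cell receptor, read 271.1 and 254.5 in control against 64.7 and 76.2 at 10%. Chips of the groups were widely apart for these genes. Cd4 (0.13) was the exception. Lef1, Tnfrsf14, Septin1, Tcf7, Ptprcap, Cd3d, Lat, Rhof, Spn and Coro1a, most of them known from leukocytes, were among the 15 genes of largest difference below 0, from -3.82 to -2.22, and none of them passed an adjusted p of 0.05. Their SE by limma was 1.4 to 2.63, since these genes scattered widely around the line through the other pools. The largest, for Lef1, came from unequal chip pairs (-5.76 and -1.87), with the first 10% chip near the floor at 2.3. Ighl2, an immunoglobulin entry, read 1948.0 and 1510.2 in control against 234.4 and 271.2 at 10%.

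Class II antigen presentation had 8 of 9 genes lower (median -1.001), with RT1-Bb at 1261.1 and 1795.9 on the control chips and 433.8 and 783.1 on the 10% chips. The invariant chain Cd74 read 2390.3 and 3074.4 in control against 1167.0 and 1497.6 at 10%. With the lymphocyte score as a covariate the median for class II was -0.18. The score is the mean of the lymphocyte list, so that list was not read with it. Of 16 macrophage markers 3 were lower (Fcgr2b, Lyz2 and Mpeg1) and none higher, and the median was -0.04. C1qa, C1qb and C1qc, complement genes of tissue macrophages, lay at -0.01, 0.19 and -0.01. Lyz2, lysozyme, read 1732.0 and 2197.7 in control against 1019.2 and 1349.7 at 10%. With the control pool at 1 month in place the median was -0.42 and 6 were lower.

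Of 18 interferon response genes 7 were lower and 1 higher, with a median of -0.26 (-0.14 with the lymphocyte score). Irf8, a transcription factor of myeloid and B cells, read 173.3 and 158.7 on the control chips and 54.0 and 68.9 on the 10% chips, and Mx1, an antiviral GTPase, read 80.2 and 80.7 in control against 36.5 and 35.1 at 10%. The immunoproteasome subunits Psmb8, Psmb9 and Psmb10 and the peptide transporter Tap1 differed by -1.02 to -0.78. Of 20 cell cycle genes 10 were lower and none higher, with a median of -0.57 (-0.20 with the lymphocyte score). Cks2, a cofactor of cyclin-dependent kinases, read 83.0 and 86.9 in control against 33.1 and 30.2 at 10%, and Pclaf, which binds Pcna, read 55.8 and 96.5 in control against 23.6 and 32.3 at 10%. By limma none of the genes in these 5 lists had an unadjusted p under 0.05. The lower mean of lymphocyte markers in the 10% pool (5.94 against 7.80 in control) stood beside the lower class II, interferon and cell cycle genes, and a link was not tested.

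Of 24 fibroblast and matrix genes 23 lay above 0, with a median of 0.35 (0.22 with the lymphocyte score), yet only Fbln1, a matrix glycoprotein, was higher. Its signals were 21.6 and 17.0 on the control chips and 53.0 and 61.4 on the 10% chips. Fbn1, the microfibril protein, differed by 0.49 and Col1a1 by 0.32. Among 15 endothelial genes Egfl7 (55.6 and 79.7 in control against 120.7 and 111.9 at 10%) and Gpihbp1 (227.3 and 306.5 in control against 405.7 and 490.4 at 10%), which holds lipoprotein lipase on capillaries, were higher and Plvap (-0.71) and S1pr1 (-0.60) lower. A second probe set of Egfl7 lay at 0.48. Mesothelial markers were mixed, and their median was 0.33 (0.01 with the lymphocyte score). Gpm6a, Wt1 and Msln were higher (1.09, 0.66 and 0.65), while Slpi, a secreted protease inhibitor, read 921.3 and 1088.4 in control against 235.6 and 372.8 at 10% and Krt18 differed by -0.67. Slpi differed by -3.16 at 30% for 1 week and -3.55 at 10% for 1 month, the same pools of low lymphocyte markers as for Scd2. The 20% pool at 1 month also had a low lymphocyte mean (3.97), and its Slpi signal is not given here. A link between Slpi and these markers was not tested. In smooth muscle and pericytes 2 of 12 genes were higher (Cspg4 and Actg2) and none lower.

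The remaining lists had few genes past the rule. Of 14 immediate early genes Ccn2 (99.9 and 170.0 on the control chips and 55.4 and 79.8 on the 10% chips) and Klf2 (-0.78) were lower and Ier3 (0.71) was higher. Further probe sets of Klf2 lay at -0.81, -0.44 and -0.03, of which the first met the rule. Of 20 genes of autophagy and lysosome Gabarapl1 was higher (0.71) and none lower, with Tfeb at -0.42. Cidea and Cpt1b were the 2 genes of thermogenic fat tested. Of 4 neutrophil and mast cell genes the mast cell protease Cma1 was higher (0.61) and Cxcr2 lay at 0.55. Neither muscle gene tested (Myh1 0.21, Ckm 0.34) met the rule. The erythroid Hba-a3 differed by 1.08 with chip pairs of opposite sign, and Slc4a1 by 0.38. The islet gene Ins1, which read 118.7 and 147.4 in control against 25.4 and 27.6 at 10%, differed by -0.04 with the control pool at 1 month in place.

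Among the other genes of largest difference above 0, Gabbr1, a subunit of the GABA B receptor, read 74.2 and 111.8 on the control chips and 268.3 and 355.3 on the 10% chips, and 2 further probe sets lay at 2.81, which met the rule, and 0.54, which did not. Metrnl, a hormone-like factor secreted by fat, read 83.5 and 126.3 in control against 291.0 and 392.0 at 10%, with a difference of 1.72 ± 0.341 (SE). Ctdspl, a phosphatase, read 91.1 and 143.9 in control against 264.7 and 462.0 at 10%, and Inmt, a methyltransferase, read 149.9 and 257.2 in control against 464.2 and 655.1 at 10%. Chips of the groups were separate for these 4 genes. Pdgfrl, Entpd6, Slc7a8, Pkn3, Pcsk4, Fgf9 and Itpkc differed by 1.503 to 2.00 at low control signals (the highest was 36.0), and for Itpkc the chip pairs gave 0.17 and 3.31. For the others the first pair gave the larger difference, most unequally for Pcsk4 (2.70 and 0.32) and Pkn3 (2.49 and 0.68). The genes the study named include members picked on data that hold these samples, so their direction is not independent evidence. Of 29 tested 10 were higher and 7 lower. Cd36, a fatty acid transporter, lay at 0.47, Fads1 at -0.44, Cmtm6 at -0.66, Dnase1l3 at -0.77 and Mpeg1 at -0.61.

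**Figure D2:**
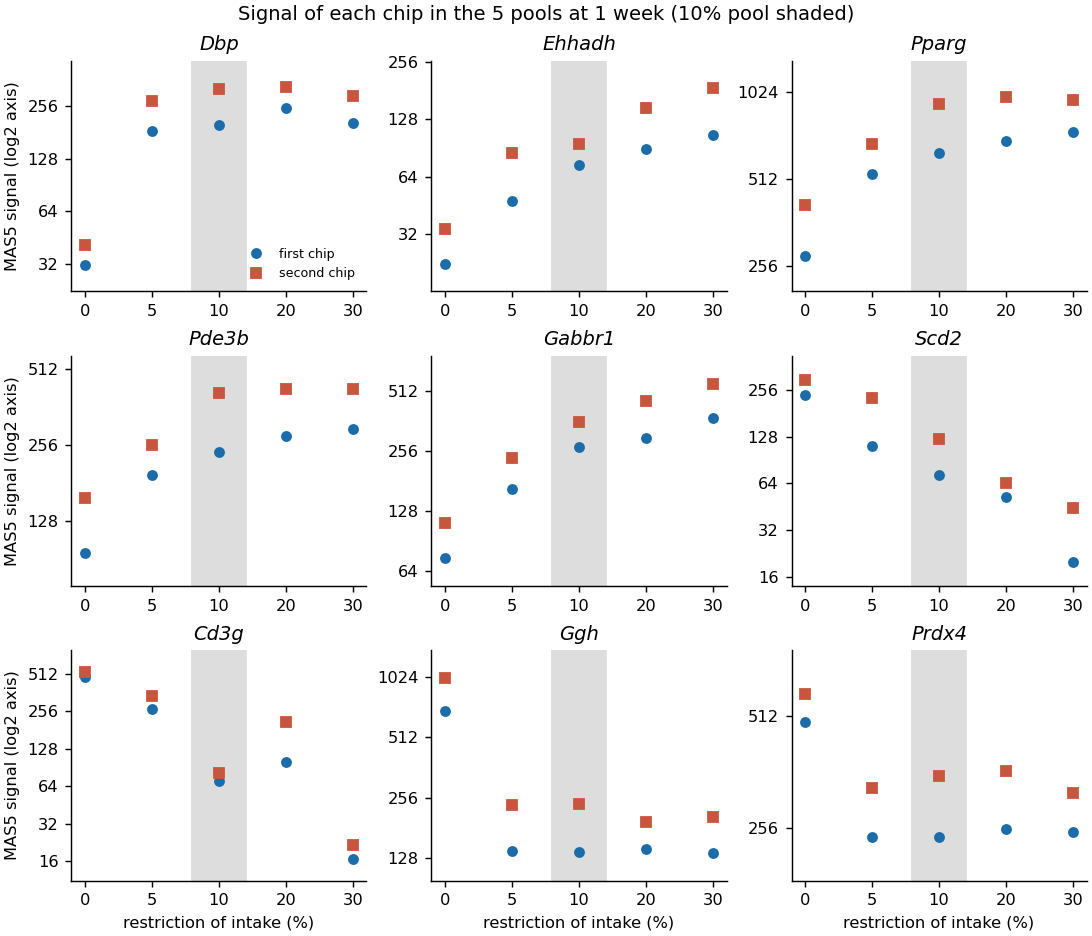
MAS5 signal (log2 axis) of each chip in the 5 pools at 1 week against restriction of intake in percent, for 9 genes, with circles for first and squares for second chips and the 10% pool shaded. Ggh and Prdx4 are high in the control pool alone, Dbp reads 198.4 and 320.3 at 10% against 31.5 and 41.1 in control, and Cd3g is lower at 10% (71.1 and 82.3) than at 5% (269.5 and 337.9) or 20% (99.5 and 208.5) and lowest at 30% (16.6 and 21.7).

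The other restricted pools at 1 week share the control pool, so their differences are given side by side without a test of likeness. For Dbp they were 2.64 at 5%, 2.81 at 10%, 2.99 at 20% and 2.76 at 30%. For Pparg they were 0.82, 1.17, 1.28 and 1.31. For Ehhadh the 10% pool (1.60) stood between 5% (1.20) and 20% (2.04). Coq8a had 0.98, 1.43, 2.05 and 2.38. For Pdk4 the values were -0.18, 0.26, 1.14 and 1.54, so 5% and 10% both lay within 1.5-fold of control. Fmo1 likewise had 0.49 at 10% and 1.83 at 30%. The plot of signals by restriction level shows these patterns chip by chip.

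Where the 10% pool departs from the rest of the series was asked against the line through the 8 other pools, which leaves out the control pool at 1 week but holds the 30% pool at 1 week with its lower level of pancreas transcripts. No probe set passed (0% of 9516, limma, lowest adjusted p 0.9995), and 187 had an unadjusted p under 0.05. Of the genes farthest from the line without a call, Actg2, a smooth muscle actin, read 203.6 and 345.3 on the control chips and 351.1 and 487.2 on the 10% chips, and lay 1.83 above it. Cnn1 and Pcp4, which smooth muscle also expresses, lay 1.27 and 2.24 above, and Gpsm1 1.22. Pcp4 read 46.9 and 35.7 at 10% against 29.6 and 48.3 in control, with chip pairs of opposite sign. In the 5% and 20% pools at 1 week it read 1.4 to 10.8. Log2 signals of the smooth muscle list averaged 7.18 in the 10% pool. They were higher in the 5% (7.39) and 20% (7.53) pools at 1 month and 6.42 to 6.96 in the remaining pools, so a high mean is not particular to the 10% pool. Below the line Wdfy2 (-1.48) rested on 1 chip, since the 10% chips read 6.5 and 72.8, and Heatr6 lay at -1.67, although its second probe set differed from control by 0.12. Lef1 (-2.36) and Septin1 (-1.55) are known from lymphocytes. Their values also leaned on the first 10% chip, since Lef1 read 2.3 and 29.4 and Septin1 3.8 and 37.2 on the 10% chips.

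The same restriction at 1 month gave a comparison that shares no chip with that at 1 week. There 599 probe sets (6.29%) were higher and 1302 (13.7%) lower by the fold rule. Of the 692 probe sets higher at 1 week, 237 (34.25%) were higher at 1 month and 19 lower. Their difference at 1 month was above 0 for 77.17%, beside 44.01% of all probe sets. Of the 682 lower at 1 week, 455 (66.72%) were lower at 1 month and 6 higher, and 94.13% lay below 0, beside 55.99% of all. As shares of the calls at 1 month, 39.57% of those higher and 34.95% of those lower had been called at 1 week. Lymphocyte markers were lower in both 10% pools. At 1 month their log2 signals averaged 7.79 in control and 3.79 at 10%.

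**Figure D3:**
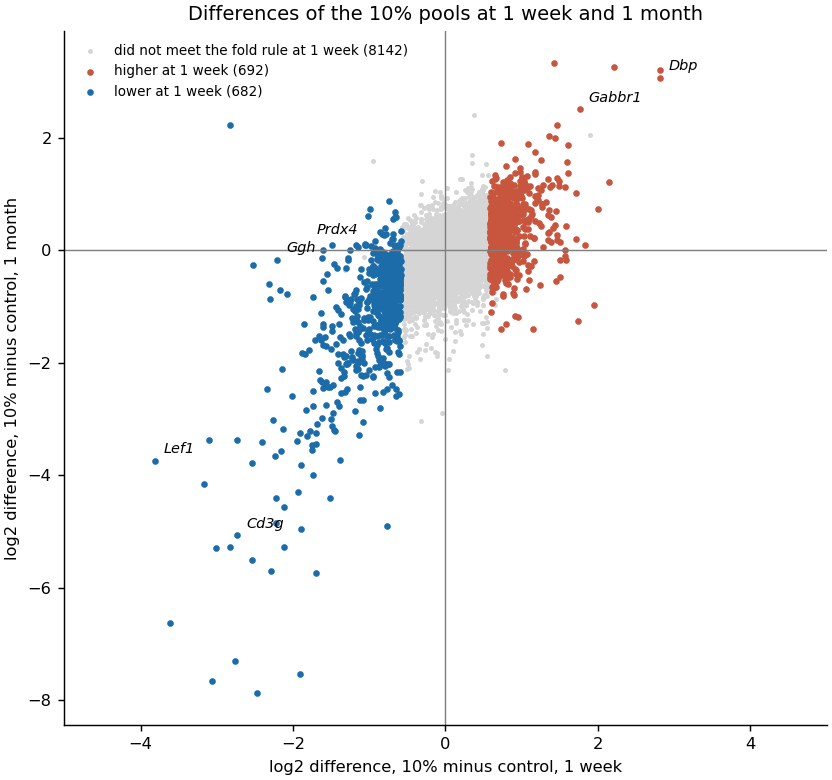
Log2 difference of the 10% pool from its control at 1 month against that at 1 week, 1 dot per probe set, coloured by the fold rule at 1 week, with 1 probe set beyond the horizontal range. Dots lower at 1 week reach far below 0 at 1 month, as for Cd3g and Lef1, while Ggh and Prdx4 lie near 0 at 1 month.

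By list, clock genes had medians of 0.96 at 1 week and 1.17 at 1 month, where 7 of 11 were higher. Dbp differed by 3.07 at 1 month, with signals of 24.3 and 23.2 in control and 188.4 and 211.8 at 10%. Per2 differed by 1.51 and Bhlhe40 by 0.04. Beta-oxidation had 15 of 23 genes higher at 1 month, with a median of 0.65 against 0.41. The medians for oxidative phosphorylation were 0.34 at 1 month and 0.05 at 1 week. Lymphocyte markers had -3.79 against -2.14 and class II genes -2.21 against -1.001. Ribosomal proteins had -0.27 against -0.45. Fibroblast and matrix genes had 0.02 at 1 month and 0.35 at 1 week, with Fbln1 at -0.10 and 1.57. Pdk4 differed by 1.07 at 1 month and 0.26 at 1 week. The difference between durations itself passed for no probe set (0% of 9516, limma, lowest adjusted p 0.357), while 563 had an unadjusted p under 0.05, so none of these contrasts between 1 week and 1 month is shown to be a change.

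**Figure D4:**
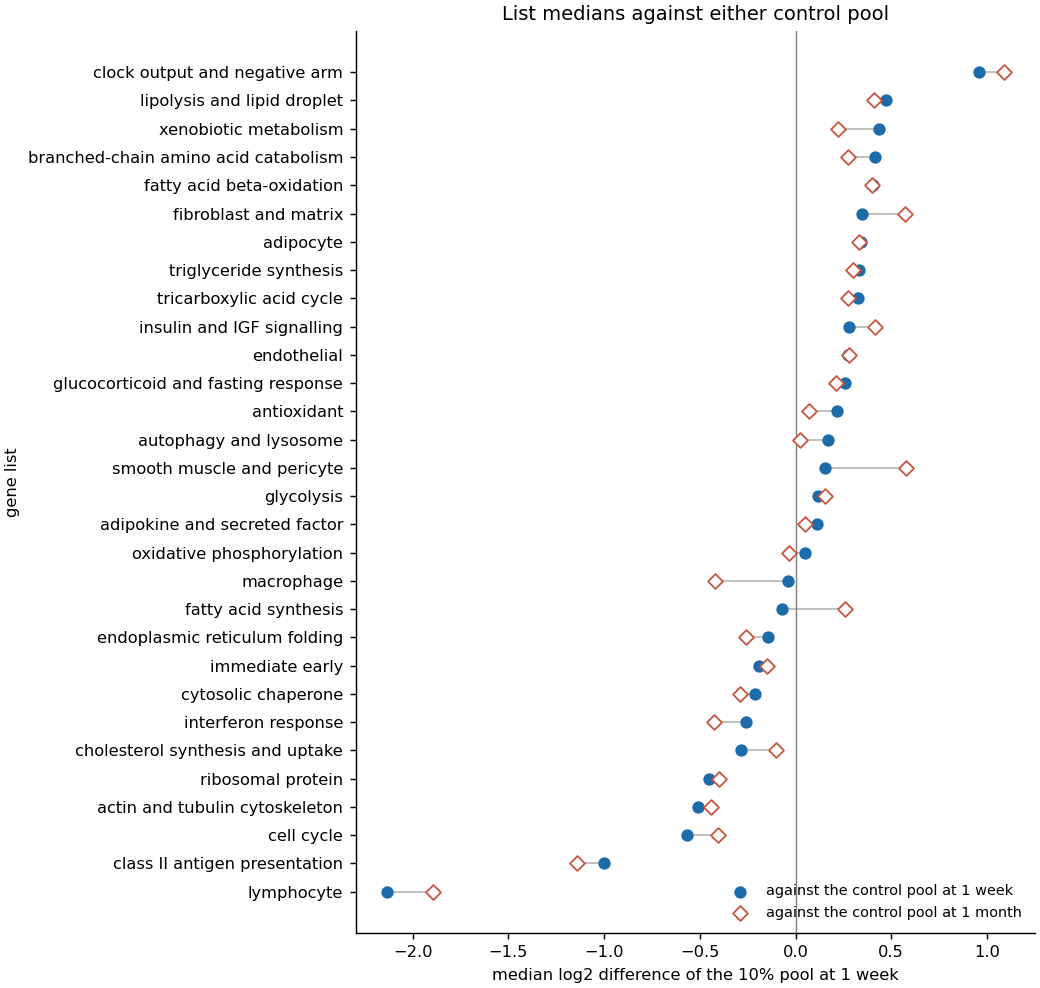
Median log2 difference of each list in the 10% pool at 1 week against the control pool at 1 week (filled circles) and against the control pool at 1 month (open diamonds, each chip centred on its median). Clock genes stay near 1 with either pool, lymphocyte markers near -2, and fatty acid synthesis crosses 0 (-0.07 and 0.26).

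As the control pool at 1 week held pancreas, the 10% pool was also set against the control pool at 1 month, whose rats were older and on the diet for longer. By the fold rule 630 of all 9516 probe sets were then higher and 638 lower. Of the 692 and 682 called with the control pool of the same week, 289 (41.76%) and 424 (62.17%) were called in the same direction. The 10% chips are the same in both comparisons, so such overlap is partly built in and is no independent repeat. Beta-oxidation (0.40), adipocyte (0.33), triglyceride synthesis (0.30) and lipolysis (0.41) had nearly the same medians as before. Again 5 beta-oxidation genes were higher, but not the same 5. Cpt1b, Ech1 and Acaa2 no longer met the rule, while others such as Acadl (0.64) and Etfdh (0.63) then did. Branched-chain catabolism had a lower median (0.27 against 0.42) and 2 genes higher in place of 5. Xenobiotic metabolism had 0.22 against 0.44, with 8 genes higher and 3 lower. Both thermogenic genes missed the rule, with a median of 0.42 against 0.82. Medians nearer 0 were also found for antioxidant genes (0.07 against 0.21), autophagy (0.02 against 0.17), adipokines (0.05 against 0.11) and neutrophil and mast cell genes (0.16 against 0.49). Those of interferon response (-0.43 against -0.26) and of endoplasmic reticulum folding (-0.26 against -0.15) were lower. No immediate early gene then met the rule. The medians of fibroblast and matrix genes (0.57 against 0.35) and of smooth muscle (0.58 against 0.16) were higher, and 11 matrix genes were then called higher. The list plot with either control pool shows such medians side by side. With the lymphocyte score as a covariate, the medians were also 0.13 for antioxidant genes, -0.02 for oxidative phosphorylation and 0.12 for macrophage markers.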

How the data were processed

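Adipose RNA of male Wistar rats was measured in 10 pools of 5 rats on 20 one-colour Affymetrix rat arrays, 2 chips per pool. The authors deposited MAS5 signals, which are linear intensity values, and MAS5 is the one tool named in the submitters' processing notes. The genome build behind the probe sets is not given in the sources used here. Present or absent calls and change calls of that software play no part here.

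Of 15923 rows 57 array controls were left out. Of 15866 probe sets 12783 had 1 gene symbol in the platform annotation, 312 several and 2771 none, and the symbols of 12779 probe sets were matched to the RefSeq gene table of GRCr8. Signals under 1 were set to 1 (0.996% to 3.87% of a chip) and log2 was taken. Testing covered the 9520 probe sets whose mean log2 signal reached the 40th percentile (22.82), for 7113 genes, each represented by its brightest probe set. The 4 tested probe sets of the exocrine pancreas list were set aside, which left 9516 probe sets and 7109 genes. A further probe set without a symbol had the same pattern over pools and was kept in the counts. Replicate numbers paired the chips because chips of one number were scaled together (trimmed means, trim 0.02, of 77.74 and 111.7).

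Pool means were fitted with limma 3.58.1 in R 4.3.3 (intensity trend, two-sided, Benjamini-Hochberg over all 9520 probe sets, threshold 0.05). The control and 10% pools at 1 week had coefficients of their own, and the other 8 pools, on a common line in restriction with a shift for duration, gave the spread (5 residual degrees of freedom). The p-values measure the spread of these pools around the line and not the spread between rats. That spread also holds any departure of a gene from a straight line in restriction, as for a gene that responds in a step. The number of arrays limits the precision. On simulated data with 200 changed among 9520 probe sets, 5.81% of calls between the pools were false, and the test off the line found 49% of log2 changes of 1 and 88.8% of those of 2, with 5.36% of its calls false. The simulated pools had independent normal noise around flat means. They held no shifts shared by many genes, as of pancreas or lymphocytes, and no curved response to restriction. These rates therefore describe the model and do not show how often calls in the real pools are false. The fold rule carries no p-value. Genes were named by a rule: the 15 largest differences per direction, per list up to 4 genes past the threshold or else the 2 of largest difference, the genes the study named, the 4 per direction farthest off the line, and the 6 pancreas genes of highest control signal. The members, the lists and this rule were chosen with earlier results of these data known. Further genes of a list were named after their values were seen. Alternatives covered centring, quantile normalization, an offset of 16, the filter, single chips, the replicate block, a slope per duration, a lymphocyte score and leaving out pools. The lymphocyte score is the mean log2 signal of the lymphocyte list in a pool. The control pool at 1 month in place was planned for lists and named genes. For the fold-rule count, it and a mean signal of at least 50 were added after seeing the data.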

Additional observations from a re-analysis of the deposited data

How the results depend on the processing

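The number of probe sets past an adjusted p of 0.05 between the pools was 1, and it was 3 with median centring, 3 with an offset of 16, 6 without the filter, 3 with a slope per duration, 6 with the lymphocyte score, and 1 to 5 when a chip number or another pool was left out (3 without the first chips, 5 without the second chips, 2 without the 5% or the 30% pool at 1 week). With the replicate block, single chips with the pool as a random block (correlation 0.344), it was 38, but there technical chips count as observations. No probe set lay off the line in any alternative except without the second chips, where 1 did (range 0 to 1). The fold rule called 1374 probe sets, and 794 with an offset of 16, 3650 without the filter, 756 at the 60th percentile, 330 at 2-fold, 904 at a mean signal of at least 50, and 1391 to 2198 on chips of one number (2198 without the second chips). Asking for one sign in all 4 chip-to-chip differences, which is no replicate block, left 1134, and median centring gave 1371 (671 higher, 700 lower). With the control pool at 1 month in place the median of the pancreas list turned to 0.50, Prdx4 to 0.20 and Rpl39 to 0.27. With the lymphocyte score Dnase1l3 turned to 0.03, Ighl2 to 0.47 and Mpeg1 to 0.20. The causes of these moves were not tested. No other named gene changed direction where it had been called. The genes of lowest signal are limited by values near the floor, and 1 pool per group leaves differences between rats outside every error given.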
